A study of Mus musculus with 8 samples.

Results

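Effector regulatory T cells carry a set of transcription factors around Blimp-1, the repressor encoded by Prdm1, and 9 of these factor genes were examined here in Tregs of mice labelled wild-type or Bcl6 knock-out. They were Prdm1, Irf4, Irf8, Batf, Maf, Nfil3, Bhlhe40, Epas1 and Pparg, taken by name from 19937 genes that had a probe set annotated to a single symbol. All 9 were found, each with 1 such probe set, so no choice between probe sets was needed. Tregs, the CD4 T cells marked by the factor FoxP3, had been sorted from wild-type mice (WT, 4 arrays) and from mice whose genotype label is Bcl6 knock-out (KO-labelled, 4 arrays). Both groups received antibodies to CD3 and CD28 for 16 h, which mimic antigen and costimulation, before 100 ng of RNA per sample went onto an Affymetrix whole-transcript array. A group consists of preparation 1 (arrays 1A and 1B) and preparation 2 (arrays 2A and 2B). Whether these are separate mice, cultures or extracts is not in the labels, nor are the strain, age, pooling or the part of Bcl6 removed. The p-values therefore reflect the spread among these arrays alone, and that spread may be technical.

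BCL6 and Blimp-1 are known as mutually antagonistic repressors in B and T lymphocytes, BCL6 holding cells in follicular states and Blimp-1 driving terminal effector or plasma cell states. IRF4 and BATF, both induced by antigen receptor signals, bind composite DNA elements together and are known to support Prdm1 expression and the effector Treg state. PPARG, MAF and NFIL3 are known for roles in tissue Tregs, in Il10 expression and in interleukin-driven or circadian programs.

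The labels and the quality of the arrays bear on every value. Bcl6 itself was higher in the KO-labelled arrays, at 8.72 ± 0.24 against 8.13 ± 0.25 log2 (SD, n = 4 arrays each), a difference that did not pass the test (limma adjusted p = 0.701). Where its probes lie relative to the deletion was not examined, so the level is no check of the genotype. Foxp3 was 9.65 to 10.27 log2 in WT and 10.45 to 11.06 in KO-labelled arrays. No 2 arrays held identical values. The KO 1 arrays had a wider spread of values over all probe sets (SD 1.84 and 1.87 log2) than the other 6 arrays (SD 1.56 to 1.70). WT 1A differed from WT 2B by a root mean square of only 0.17 log2 and from its labelled partner WT 1B by 0.44, while KO 2A and KO 2B differed by 0.17 and KO 1A and KO 1B by 0.19. WT 1B was nearest to WT 2A (0.25), but WT 2A was nearer to its labelled partner WT 2B (0.23). The WT 1 arrays thus did not pair as labelled, while WT 2A did. The WT preparation labels may be crossed, which was not tested. The labels were used as given. The random block, the preparation means, the fit with the preparation number as a block and the fits without WT 1 or WT 2 rest on them. The mean log2 level of 3 Y-linked genes was 4.62 to 4.80 in KO-labelled and 6.94 to 8.30 in WT arrays. It moved with the genotype label and no fit included it. A difference tied to these genes, or to the sex of the mice, therefore cannot be told apart from one tied to genotype. This holds for every KO minus WT difference given here. The part of the spread in KO 1 was not tested beyond the fits given with the results.

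Promoter sequence was available for 6 of the 9 genes (Prdm1, Irf4, Irf8, Batf, Nfil3 and Pparg, 9 annotated starts in all). The 250 bases before each start, from RefSeq's GRCm38.p6 annotation, were searched on both strands for motifs of the factors under study. The motifs were TTCNNNGAA for BCL6 and the STAT factors, TGANTCA for AP-1 (the partner site of BATF) and AANNGAAA for IRF factors. Others were AGNGAAAG for Blimp-1, CACGTG for the E-box bound by BHLHE40, and TTANGTAA for NFIL3. A separate motif for HIF proteins was not searched. Of 32851 promoter windows of this length, 7.02% held TTCNNNGAA, 6.75% TGANTCA, 21.3% AANNGAAA, 7.3% AGNGAAAG, 6.02% CACGTG and 2.06% TTANGTAA. The windows of Prdm1 and Irf8 are printed because they held matches to the BATF partner motif and to the BCL6 motif; capitals mark the matches, which did not overlap each other.

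Prdm1, chr10:44458749-44458998, minus strand: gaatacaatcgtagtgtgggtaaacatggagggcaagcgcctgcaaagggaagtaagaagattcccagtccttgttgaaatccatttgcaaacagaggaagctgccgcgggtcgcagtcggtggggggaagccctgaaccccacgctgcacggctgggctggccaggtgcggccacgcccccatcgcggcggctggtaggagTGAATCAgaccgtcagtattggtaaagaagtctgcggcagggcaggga
Irf8, chr8:120736108-120736357, plus strand: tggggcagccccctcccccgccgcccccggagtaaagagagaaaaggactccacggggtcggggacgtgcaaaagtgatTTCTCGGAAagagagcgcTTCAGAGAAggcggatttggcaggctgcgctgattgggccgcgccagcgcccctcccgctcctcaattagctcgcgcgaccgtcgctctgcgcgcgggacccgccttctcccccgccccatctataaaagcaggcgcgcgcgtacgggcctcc

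The Prdm1 window held 1 match to the AP-1 motif, at bases -48 to -42 counted from the start of transcription. The Irf8 window held 2 matches to the BCL6 motif, at -171 to -163 and at -153 to -145, and a second annotated Irf8 start held none of the motifs searched. One Pparg start had an AANNGAAA match at -36 to -29. The windows of Batf, Irf4 and Nfil3 and the other Pparg starts held none of these letters. A match is a description of the sequence, and binding was not measured.

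Of the 9 factors 7, all but Irf4 and Epas1, had a higher log2 level in every KO-labelled array than in any WT array. In each of the 7 the order was the same, with KO 1 highest, KO 2 between and WT lowest. The same separation upwards was seen in 6.67% of all genes, and separation downwards in 2.11%. With limma and Benjamini-Hochberg adjustment over all 19937 genes, 0 of the 9 passed at an adjusted p under 0.05, against 0.12% of all genes called higher. At an unadjusted p under 0.05, 7 of the 9 were higher, against 5.65% of all genes, and 0 of the 9 lower, against 0.542%. The 9 genes were chosen with earlier results of these data known. Their shares beside those of all genes are therefore not independent evidence of a direction. The median difference of the 9 was 1.42 log2, with 1.95 in KO 1 and 0.53 in KO 2, beside -0.06, -0.13 and 0.02 over all genes. Centring each array on its median moved the median difference of all genes to 0.04, a shift of about the size of the smallest differences given here.

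**Figure D1:**
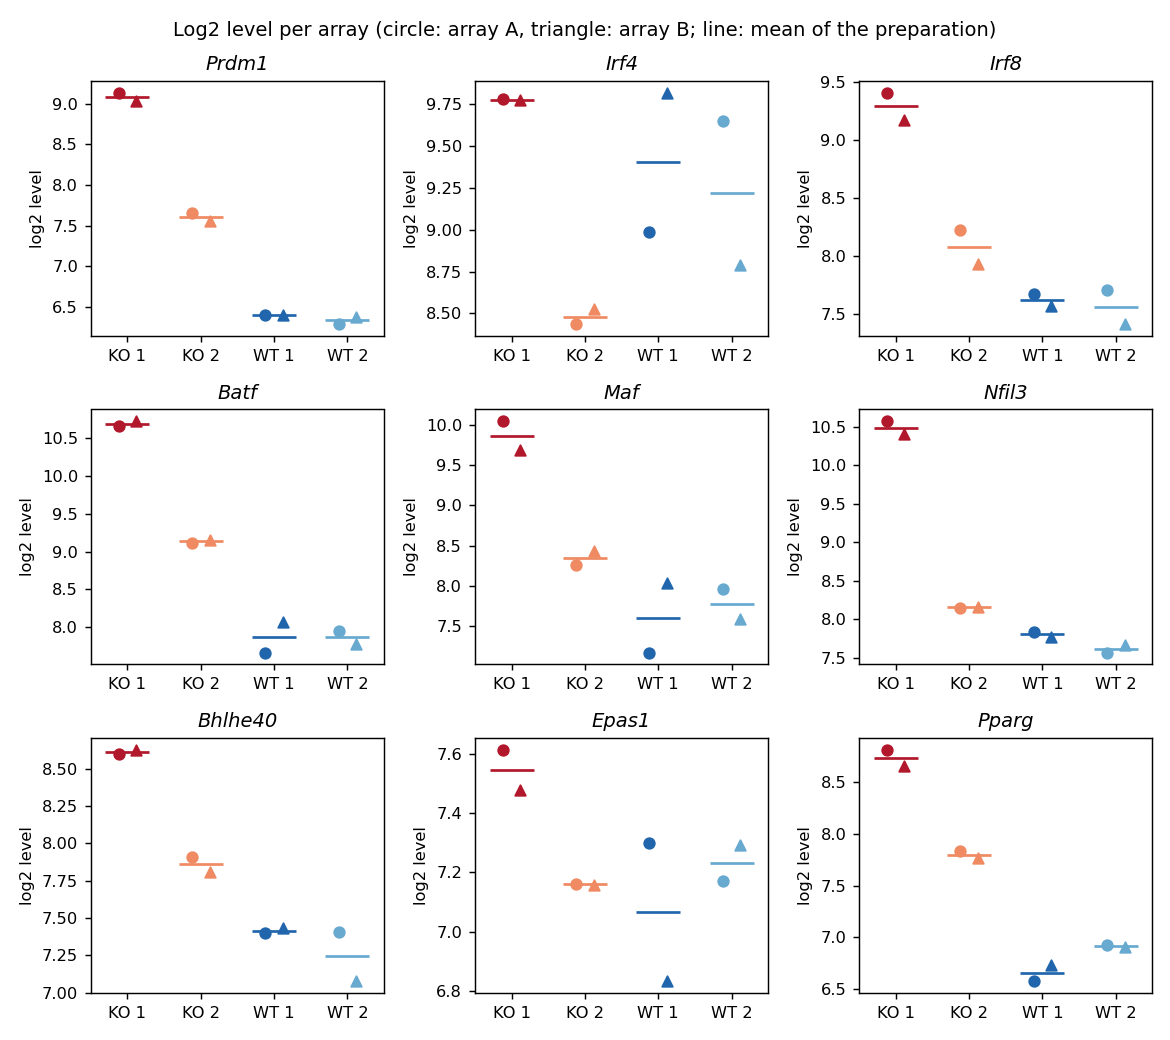
Log2 level of each of the 9 factors (vertical axis, a separate scale per panel) in preparations KO 1, KO 2, WT 1 and WT 2; circles are arrays A, triangles arrays B, and lines the mean of a preparation. In 7 panels the values step down from KO 1 to KO 2 to WT, while Irf4 and Epas1 overlap between the groups.

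Prdm1 encodes Blimp-1, a zinc finger repressor that promotes terminal effector differentiation. Its log2 level was 9.14 and 9.03 in KO 1A and KO 1B, 7.66 and 7.56 in KO 2A and KO 2B, and 6.41, 6.40, 6.28 and 6.38 in WT 1A, 1B, 2A and 2B. The 4 WT arrays lay within 0.12 log2 of each other, the narrowest WT range of the 9 genes. These WT levels were below the median of all probe sets in the WT arrays (6.97 to 7.125 log2). Whether they exceeded background was not tested. The lowest KO 2 array was 1.15 above the highest WT array. The fitted difference was 1.98 log2 (SE 0.35, 95% interval 1.22 to 2.74), 3.94-fold, with a limma adjusted p of 0.0564 that did not pass. It ranked 33rd of all genes when differences were ordered from the most positive to the most negative. Against the WT mean Prdm1 was 6.57-fold higher in KO 1 and 2.36-fold higher in KO 2.

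Batf encodes a basic leucine zipper factor that pairs with JUN proteins and recruits IRF4. Its level was 10.66 and 10.73 log2 in the KO 1 arrays, 9.12 and 9.16 in the KO 2 arrays, and 7.66, 8.07, 7.95 and 7.77 in WT 1A, 1B, 2A and 2B. The groups did not overlap, and the lowest KO 2 array was 1.05 above the highest WT array. The difference of 2.05 log2 (SE 0.40, 95% interval 1.19 to 2.92) was the largest of the 9 and did not pass (limma adjusted p = 0.0825). Batf was 7.13-fold above the WT mean in KO 1 and 2.42-fold in KO 2.

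Irf4, the interferon regulatory factor induced by T cell receptor signals, did not follow this order. It was 9.78 in both KO 1 arrays, 8.43 and 8.52 in the KO 2 arrays, and 8.99, 9.82, 9.65 and 8.79 in WT 1A, 1B, 2A and 2B. KO 1 thus lay level with WT 1B and WT 2A, and KO 2 lay below all 4 WT arrays. The difference was -0.18 log2 (SE 0.49, 95% interval -1.23 to 0.87, limma adjusted p = 0.837), an interval that spans 0 widely. It was 0.47 in KO 1 and -0.83 in KO 2 against the WT mean. The sign turned to above 0 without WT 1B (0.02), without WT 2A (6.8e-04) or without KO 2 (0.47). After quantile normalization, which gives all arrays the same distribution, KO 1 stood at -0.06 and KO 2 at -0.90, so the direction in KO 1 depended on the scaling. In the 4 arrays with the highest Irf4 the SD over all probe sets was 1.70 to 1.87 (KO 1A, KO 1B and WT 1B) and 1.62 (WT 2A). It was 1.65 in KO 2A, where Irf4 was lowest. The part of the array SD was not tested beyond the fit that follows. With array SD as a covariate Irf4 was lower by a called amount (-0.94, adjusted p = 4.1e-05), a fit in which 4.43% of all genes were called lower and 8.02% higher, and in which Prdm1, Batf, Pparg, Irf8, Maf and Bhlhe40 were called higher. The differences were smaller in that fit, with a median over the 9 of 0.501 log2: Prdm1 was at 1.22, Batf at 1.23, Pparg at 1.01, Maf at 0.58, Bhlhe40 at 0.50, Irf8 at 0.47 and Nfil3 at 0.42 (95% interval -0.01 to 0.85). Its estimated correlation within preparations was -0.367, which narrows the intervals.

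Irf8, the related factor known from myeloid and B cell development and also present in Tregs, was higher in the KO-labelled arrays by 1.09 log2 (SE 0.34, 95% interval 0.35 to 1.84, limma adjusted p = 0.510), which did not pass. Its levels were 9.41 and 9.17 in KO 1, 8.22 and 7.93 in KO 2, and 7.67, 7.57, 7.71 and 7.41 in WT 1A, 1B, 2A and 2B. The groups did not overlap, but the lowest KO 2 array was only 0.22 above the highest WT array, less than the gap of 0.29 between the KO 2 arrays themselves. The 2 IRF genes therefore differed in pattern: KO 2 was above WT for Irf8 and below it for Irf4, a contrast that was not tested.

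Maf encodes c-MAF, a basic leucine zipper factor known to support Il10 expression. Its log2 level was 10.05 and 9.69 in KO 1, 8.26 and 8.43 in KO 2, and 7.17, 8.04, 7.96 and 7.59 in WT 1A, 1B, 2A and 2B. WT 1B and WT 2A were the higher WT arrays, as they were for Irf4 and Batf, and the WT range of 0.87 was second to that of Irf4 (1.03). The difference of 1.42 log2 (SE 0.47, 95% interval 0.39 to 2.44) did not pass (limma adjusted p = 0.565).

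Nfil3, a basic leucine zipper repressor induced by interleukins, had the widest separation of the KO-labelled preparations. It was 10.57 and 10.40 in KO 1, 8.15 and 8.16 in KO 2, and 7.84, 7.77, 7.56 and 7.66 in WT 1A, 1B, 2A and 2B. KO 1 was 6.87-fold above the WT mean and KO 2 1.36-fold. The fitted difference of 1.61 log2 (SE 0.51, 95% interval 0.51 to 2.72) did not pass (limma adjusted p = 0.514).

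Bhlhe40 encodes a basic helix-loop-helix repressor induced on T cell activation. Its levels were 8.60 and 8.63 in KO 1, 7.91 and 7.81 in KO 2, and 7.40, 7.43, 7.41 and 7.07 in WT 1A, 1B, 2A and 2B. WT 2B was the low WT array, the other WT arrays lay close together, and the groups did not overlap. The difference of 0.91 log2 (SE 0.27, 95% interval 0.33 to 1.49) did not pass (limma adjusted p = 0.455).

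Pparg encodes a lipid-activated nuclear receptor known from Tregs of adipose tissue. Its level was 8.81 and 8.66 in KO 1, 7.83 and 7.77 in KO 2, and 6.58, 6.73, 6.92 and 6.91 in WT 1A, 1B, 2A and 2B. The lowest KO 2 array was 0.84 above the highest WT array, about as wide a gap as the 0.83 between the KO 1 and KO 2 arrays. The difference was 1.48 log2 (SE 0.28, 95% interval 0.88 to 2.09, limma adjusted p = 0.0756) and did not pass. Pparg was 3.87-fold above the WT mean in KO 1 and 2.02-fold in KO 2.

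Epas1 encodes HIF-2 alpha, the oxygen-regulated partner of ARNT. It was 7.61 and 7.48 in KO 1, 7.16 in both KO 2 arrays, and 7.30, 6.83, 7.17 and 7.29 in WT 1A, 1B, 2A and 2B. The KO 1 arrays were above the WT arrays while the KO 2 arrays lay within their range. The difference of 0.20 log2 (SE 0.25, 95% interval -0.34 to 0.75, limma adjusted p = 0.713) did not pass.

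**Figure D2:**
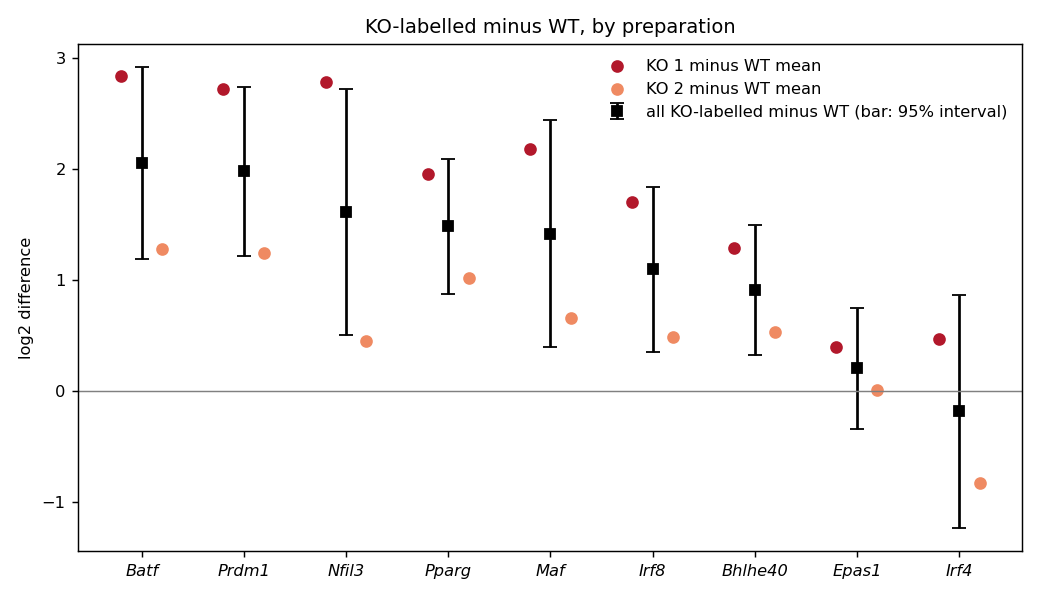
Log2 difference from WT for each factor, ordered by the fitted difference; black squares are all KO-labelled arrays with 95% intervals, and red and orange points KO 1 and KO 2 against the mean of the 4 WT arrays. Intervals of Irf4 and Epas1 include 0, and KO 1 exceeds KO 2 for all 9 genes.

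The KO-labelled preparations gave different sizes of the same direction in most of these genes. KO 1 was above the WT mean in all 9 and KO 2 in 8, against 8513 and 11300 of 19937 genes. Epas1 in KO 2 was at 0.01 as deposited and at -0.04 after quantile normalization, so its sign there turned with the scaling. The difference in KO 2 was 52.0% of that in KO 1 for Pparg, 45.7% for Prdm1, 45.0% for Batf and 41.2% for Bhlhe40, but 30.0% for Maf, 28.8% for Irf8 and 16.1% for Nfil3. After quantile normalization these shares were 66.0% for Pparg, 59.2% for Bhlhe40, 53.8% for Prdm1, 52.6% for Batf, 40.7% for Maf, 40.3% for Irf8 and 19.1% for Nfil3. Nfil3 thus had the smallest share of the 7 under both scalings, and KO 1 exceeded KO 2 throughout. The gap between the KO 1 and KO 2 arrays of a gene (0.69 to 2.24 log2 over the 7) was wider than any gap between arrays A and B of these preparations (at most 0.36, for Maf).

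Prdm1, Batf and Pparg were the members called most often under other fits. With no block, a fit that uses no preparation labels, they were the 3 called (limma adjusted p = 0.0301, 0.0364 and 0.0249), against 0.461% of all genes. On the means of the preparations Prdm1 (adjusted p = 0.0144) and Batf (0.0245) passed and Pparg did not (0.0875), against 0.226% of all genes. Array weights called 3 of the 9, against 0.306% of all genes, and a filter at log2 6 called Prdm1 alone, against 0.159%. With the preparation number as a replicate block limma called all 7 of the separated factors, Irf8, Maf, Nfil3 and Bhlhe40 included, against 3.11% of all genes. That fit and the fit with no block treat arrays A and B of a preparation as independent. The replicate block also takes a number to mean the same in both groups, which the labels do not say. The KO 1 arrays were then left out, in a fit with no random block that treats KO 2A and KO 2B as independent. Limma called Prdm1, Batf and Pparg, 3 of the 9, higher, against 0.642% of all genes. Their adjusted p were 4.4e-04, 0.0024 and 0.00587, with differences of 1.24, 1.27 and 1.01 log2. With KO 2 left out instead, 8 of the 9 were called higher, all but Irf4, but so were 30.1% of all genes. After quantile normalization of all 8 arrays the called members were again Prdm1 (1.86, SE 0.28, adjusted p = 0.0137), Batf (1.90, SE 0.30, adjusted p = 0.0198) and Pparg (1.40, SE 0.20, adjusted p = 0.0105), against 0.607% of genes called higher and 0.181% lower. The KO-labelled and WT arrays of all 7 genes stayed apart after quantile normalization and after median centring. As deposited, 1 array decided the Prdm1 call: it passed without KO 2B (adjusted p = 0.0305), WT 1A (0.0322) or WT 1B (0.0193). Pparg passed without KO 2B (0.0386) and Batf without WT 1B (0.0162). Without both WT 1 or both WT 2 arrays limma called 0 of the 9. At an unadjusted p under 0.05, 7 and 6 were higher, against 1069 and 648 of 19937 genes.

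In bulk RNA, a larger share of cells that express a factor and more RNA per cell cannot be told apart. The mean log2 level of 6 B cell markers was 5.83 to 5.88 in KO 1, 6.03 to 6.10 in KO 2 and 5.91 to 6.15 in WT. That of 5 plasma cell markers, which go with Prdm1 and Irf4, was 6.15 to 6.19, 6.53 to 6.58 and 6.35 to 6.61. That of 7 macrophage markers was 6.35 to 6.48, 6.53 to 6.59 and 6.33 to 6.59, of 7 dendritic cell markers 6.08 to 6.12, 6.44 to 6.56 and 6.21 to 6.58, and of 5 endothelial markers, which go with Epas1, 6.42 to 6.45, 6.65 to 6.66 and 6.77 to 6.85. None of these list means exceeded the WT range in KO 1 or KO 2. In the macrophage list Lyz2 and Cd68 were at 0.35 log2 and the other markers below 0. In the B cell list Cd79b was at 0.33 and the others below 0. The KO 1 arrays had lower medians over all probe sets (6.80 and 6.84 log2) than the WT arrays (6.97 to 7.125). These means are therefore no measure of cell content, and carry-over of other cells was not tested. CD8, NK and mast cell markers reached at most 7.58, 5.22 and 5.62 in KO-labelled arrays against 7.73, 5.25 and 5.76 in WT, while Alas2, the 1 red cell marker measured, was at 6.37 to 6.74 against 6.02 to 6.39. The 7 T cell and Treg markers were at 11.07 to 11.09 in KO 1, 10.50 to 10.53 in KO 2 and 9.87 to 10.60 in WT, so they ran with KO 1, and their part in the results was not tested. Limma called 0 of the markers, and only Foxp3 and Il2ra had an unadjusted p under 0.05, at 0.84 and 1.49 log2.

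Relatives of these factors were examined as further lists. Among 8 measured IRF and PU.1-type genes 0 passed, and 3 had an unadjusted p under 0.05, all higher, against 5.65% of all genes. Irf1, an interferon-induced factor, was at 1.09 log2 (1.84 in KO 1, 0.34 in KO 2). Irf5 was at 0.56 and Irf9, a subunit of the interferon-activated complex ISGF3, at 0.68. Of 11 AP-1 and BATF partners 0 were called. At an unadjusted p under 0.05, 3 were higher (5.65% of all genes) and 1 lower (0.542%). Jund was at 0.85 and Junb at 0.77, while the BATF relatives Batf2 and Batf3 were at -0.37 and -0.34. Bach2, a repressor that restrains effector differentiation and competes for AP-1 sites, was at -0.89 (SE 0.31, adjusted p = 0.581), which is 0.501 of the WT level in KO 1 and 0.578 in KO 2. Its KO-labelled arrays were all below WT, and it was called lower after quantile normalization (-1.13, adjusted p = 0.0310). Of 5 other Maf genes and 12 other PRDM genes limma called 0, and 0 had an unadjusted p under 0.05. The small Maf genes Mafk and Mafg were both at 0.18 and Nrl at -0.20. Prdm4 was at 0.70 (adjusted p = 0.701), Prdm8 at -0.34 and Mecom at -0.22.

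Genes that work with NFIL3, BHLHE40, HIF-2 alpha and PPARG were examined next. Among 15 clock and PAR bZIP genes limma called 0, and only Rora was higher at an unadjusted p below 0.05, against 5.65% of all genes. Rora, a nuclear receptor known from tissue Tregs, was at 0.97 log2 (SE 0.21, adjusted p = 0.179). It stood at 0.89 in KO 1 and 1.05 in KO 2, whereas KO 1 exceeded KO 2 in all 9 factors. Bhlhe41, the close relative of Bhlhe40, was at 0.25 and the clock activator Arntl at 0.36. Of 9 HIF subunits and regulators 0 were called. Egln3, a prolyl hydroxylase induced by HIF proteins, was at 1.38 (SE 0.31, adjusted p = 0.186), Hif1a at 0.59 and Egln1 at 0.47. Egln3 alone had an unadjusted p under 0.05, against 5.65% of all genes higher. Egln3 was called after quantile normalization (1.29, adjusted p = 0.0269). Of 11 PPAR and RXR partners 0 were called, and Rxra, the partner receptor of PPARG, was at 0.49, Nr1h3 at -0.30 and Ppargc1a at -0.24. Of 14 described PPARG target genes 0 were called. At an unadjusted p under 0.05, 5 were higher (5.65% of all genes) and 0 lower (0.542%). Plin2, a lipid droplet coat protein, was at 1.01 (SE 0.25, adjusted p = 0.262; called after quantile normalization, at 0.735 with adjusted p = 0.0336), Dgat1, which makes triglycerides, at 1.21 and Cpt1a, which imports fatty acids into mitochondria, at 0.94. Fabp5, at 0.73, and Cd36, at 0.38, completed the 5 with an unadjusted p under 0.05. Fabp4 and Adipoq, adipocyte targets of PPARG, were at -0.05 and -0.20. Both had low levels, 5.24 and 5.36 log2 in KO-labelled and 5.29 and 5.56 in WT arrays. Cd36 was also low, at 5.17 in KO-labelled and 4.80 in WT arrays.

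Products of effector Tregs were the list with the largest differences. Of 22 measured, 7 rose, 0 fell and 15 did not pass, against 0.12% of all genes called higher; after quantile normalization 14 were called, Il10 included (adjusted p = 0.0259). Their median was 1.69 log2 (KO 1 2.21, KO 2 1.27). The list was written with results of these data known and is not independent evidence of its direction. Those that rose were Klrg1, Ccr2, Itgae, Gzmb, Cxcr6, Fgl2 and Cd44, from 4.09 log2 (SE 0.30, limma adjusted p = 9.4e-05) for Klrg1, an inhibitory lectin receptor, to 1.81 (SE 0.29, adjusted p = 0.0328) for Cd44, an adhesion receptor. The chemokine receptors Ccr2 and Cxcr6 rose by 3.35 and 1.98, the integrin gene Itgae by 3.08, the protease gene Gzmb by 3.53 and Fgl2 by 2.06. Il10, the cytokine linked to Blimp-1 and c-MAF, was at 2.77 (adjusted p = 0.0676), 3.95 above WT in the first KO-labelled preparation and 1.60 in the second. Genes that Blimp-1 is described to repress had a median of -0.20 over 14 measured. Limma called 0 of them. At an unadjusted p under 0.05, 0 were higher (5.65% of all genes) and 2 lower (0.542%), Ccr7 and Bach2. Ccr7, the lymph node homing receptor, was at -0.89 and was called after quantile normalization (-1.19, adjusted p = 0.0316). Cxcr5, a follicular homing receptor, was at -0.37. All KO-labelled arrays were below all WT arrays for 4 of the 14, Ccr7, Bach2, Id3 and Il2 (2.11% of all genes). They were above them for 1, Bcl6 (6.67% of all genes). Il2 differed by only -0.17 at a low level (5.31 against 5.48 log2 in WT), and Id3 by -0.60. Neither Il2 nor Id3 had an unadjusted p under 0.05. Myc, another described target of Blimp-1, was at 0.74, with 1.34 in KO 1 and 0.14 in KO 2.

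**Figure D3:**
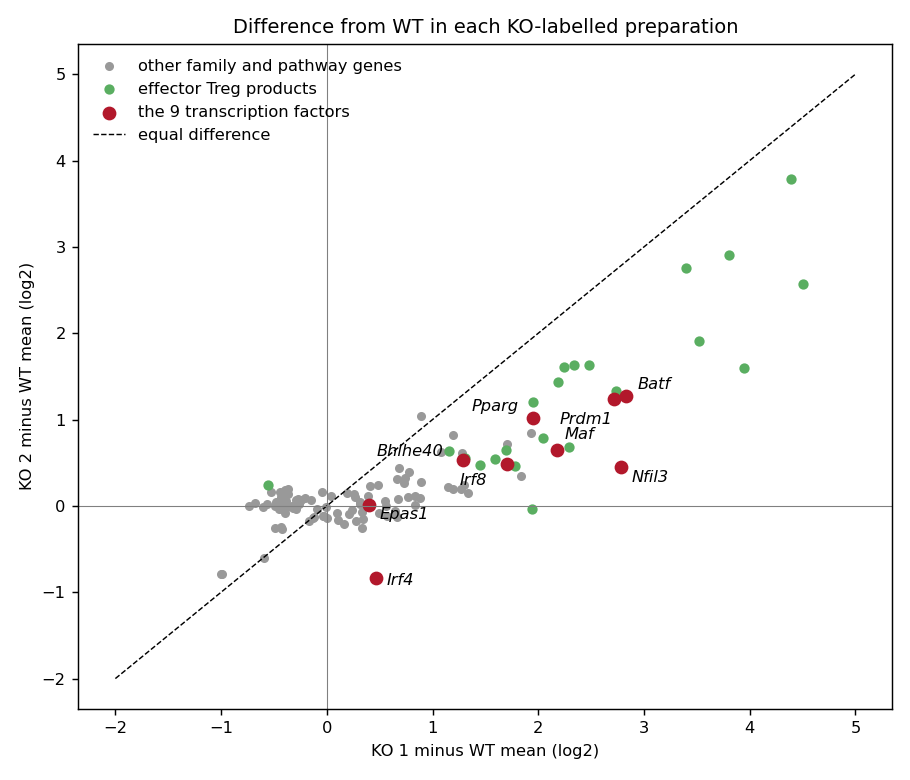
Difference from the WT mean in KO 1 (horizontal, log2) and KO 2 (vertical, log2) for the 9 factors (red, named), effector Treg products (green) and the other family and pathway genes (grey); the dashed line marks equal differences. The factors lie below the line, Nfil3 at 2.78 and 0.45, and Irf4 is below 0 in KO 2.

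The genes whose levels over the 8 arrays were most like those of Prdm1 were found by Pearson r among 2127 genes with an SD over arrays of at least 0.5 log2. This is a description: arrays share preparations, and the step from WT to KO 2 to KO 1 fixes much of each r. The highest were Pclaf, a PCNA-binding protein of S phase, Il10, Glrx, a glutaredoxin, and Incenp, a subunit of the chromosomal passenger complex, each at 0.997, and Cdk6, a G1 kinase, at 0.996. Il10 was 10.61 and 10.43 in KO 1, 8.18 and 8.16 in KO 2 and 6.40 to 6.64 in WT. The lowest were Tubb2b at -0.993, Hdac9, a class IIa histone deacetylase, at -0.992 and Gucy1a1 at -0.964. Hdac9 was 6.52 and 6.67 in KO 1, 7.20 and 7.13 in KO 2 and 7.80 to 7.88 in WT. Among the other factors r with Prdm1 was 0.993 for Batf, 0.987 for Pparg, 0.978 for Bhlhe40, 0.970 for Irf8, 0.951 for Nfil3, 0.942 for Maf, 0.702 for Epas1 and 0.230 for Irf4.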

How the data were processed

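The deposited values are log2 expression summaries of 28768 probe sets, which the authors obtained by RMA using Partek software, as the submitters' processing notes and the labels tell; the sources used here name no version. They were used with no further scaling, 0 values were missing, and 0 columns of per-sample values were left unused. RMA makes arrays comparable, but the SD of these arrays differed, which can widen or narrow differences. Names came from the platform annotation: 21771 probe sets had 1 symbol, 1557 several and 5440 none. For the 999 genes with several probe sets the one with the highest mean was used. The number of arrays limits the precision.

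KO-labelled and WT arrays were compared over all genes with limma 3.58.1 in R 4.3.3 (lmFit, eBayes with a variance trend, two-sided), with the preparation as a random block (duplicateCorrelation, estimate 0.617) and Benjamini-Hochberg adjustment. The code was tested on simulated data. The members, lists and tests were chosen with earlier results of these data known. Named genes were all 9 factors, up to 3 per list with the smallest p and any called, Bcl6 and Foxp3, and the 5 most and 3 least Prdm1-like, leaving out predicted genes. Batf2, Batf3, Fabp4, Fabp5, Cd36, Adipoq, Id3, Il2 and Myc were chosen after their values were seen. So were the Y-linked genes, Alas2, Lyz2, Cd68 and Cd79b. Listed genes without a matching single-symbol probe set were not analysed here. There were 24 alternative settings.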

Additional observations from a re-analysis of the deposited data

Results flagged for a closer look

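In WT, 1 of the 4 arrays stood apart for Bhlhe40: the gap from WT 2B (7.07 log2) to the nearest other array was 0.903 of the group's range, beyond Dixon's critical value for 4 samples. The other WT arrays were at 7.40 to 7.43. Chance gives such a gap in about 1 in 20 such groups, and 18 groups were examined.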

How the results depend on the processing

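Prdm1, Irf8, Batf, Maf, Nfil3, Bhlhe40, Epas1 and Pparg kept a difference above 0 under all 24 settings, while Irf4 ranged from -0.94 to 0.47. As reported, 0 of the 9 were called. The count called higher was 3 with no block (0.461% of all genes), 2 on preparation means (0.226%) and 3 after quantile normalization (0.607%). It was 3 with array weights (0.306% of all genes) and 1 with a filter at log2 6 (0.159%). With array SD as covariate 6 were higher (8.02%) and 1 lower (4.43%). The count was 3 without KO 1 (0.642%), 8 without KO 2 (30.1%) and 0 to 2 on leaving out 1 array (13 to 51 of all genes). The labels do not say what a preparation number shares between the groups. Deviations of same-numbered preparations correlated at 0.416, and 2 pairs are too few to settle pairing. With the number as a replicate block, arrays A and B count as independent, and 7 were called higher (3.11% of all genes). They were Prdm1, Batf and Pparg, and also Irf8 (limma adjusted p = 0.0274), Maf (0.0402), Nfil3 (0.0323) and Bhlhe40 (0.0146). Of the pathway list genes 7 were called higher as reported (0.12% of all genes) and 0 lower. All 7 were among the 22 effector Treg products, a list written with results of these data known. The other lists held 0 called genes. The counts higher were 14 with no block (0.461% of all genes), 11 on preparation means (0.226%) and 12 with array weights (0.306%). With the replicate block 24 were higher (3.11%) and 2 lower (57 of all genes). After quantile normalization 16 were higher (0.607%) and 2 lower (0.181%). With the SD covariate 33 were higher (8.02%) and 5 lower (4.43%). Leaving out KO 1 gave 16 higher (0.642%). Leaving out KO 2 gave 56 higher (30.1%) and 30 lower, where 7381 of all 19937 genes were lower. Leaving out WT 1 gave 3 higher (7 of all genes) and leaving out WT 2 gave 3 (3 of all genes). Leaving out 1 array gave 5 to 12 (13 to 51 of all genes). Irf4 turned to 0.47 without KO 2, and ranged from -0.385 without WT 2B to 0.0194 without WT 1B. It was 6.78e-04 without WT 2A. The cause of these shifts was not tested. With 2 preparations a group, and KO 1 and KO 2 so unlike, the fitted spread is wide; signal over background was not analysed here.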
